A study of Sus scrofa with 92 samples.

Results

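Insulin-like growth factor (IGF) and insulin signalling genes were followed in pig liver over trauma, hemorrhagic shock and resuscitation. They were chosen by symbol: IGF1, its carriers IGFBP1, IGFBP2, IGFBP3 and IGFALS, the receptors GHR and INSR, the insulin receptor substrates IRS1 and IRS2, and the transcription factor FOXO1. Of these 10 genes, 7 matched a pig Ensembl identifier among the 25322 in the count table: IGF1 (ENSSSCG00000000857), IGFBP1, IGFALS, GHR, INSR, IRS1 and FOXO1. IGFBP2, IGFBP3 and IRS2 were not analysed here. The animals were 18 fasted (FS) and 5 carbohydrate prefed (CPF) Yorkshire-Landrace pigs, all male, juvenile and without food overnight, and the CPF animals alone were then given a bolus of diluted Karo syrup, a mixture of sugars, an hour before induction. Every animal in both groups was anesthetized, had its spleen removed, and received a blunt chest injury, a liver crush and a controlled bleed, followed by limited and then full resuscitation, so no group went without injury. Peripheral liver was biopsied at Baseline (B) after instrumentation and at 2, 8 and 20 hours of full resuscitation (FR2, FR8, FR20), with 1 RNA library for each animal and timepoint. The Baseline biopsy of CPF animals was therefore taken after the syrup, and no uninjured or unoperated animal gives a time control. Of the 18 FS animals 3 died, and of the 5 CPF animals 2 died.

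Growth hormone acts on its receptor GHR in hepatocytes and drives the liver to make IGF1 and the acid-labile subunit IGFALS, which with an IGF binding protein holds IGF1 in a long-lived complex in blood. IGFBP1 is a short-acting binding protein made by hepatocytes, and its gene is held down by insulin and switched on by fasting, glucagon and glucocorticoids. Insulin binds INSR, passes its signal through IRS1 and IRS2 to PI3 kinase and AKT, and AKT keeps FOXO1, an activator of IGFBP1 and of gluconeogenic genes, out of the nucleus.

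The 88 libraries used (69 FS and 19 CPF) held 6877117 to 16613261 counts on genes, with a median of 12071957. Albumin (ALB) had at least 170443 counts in each of them, as liver should. Left out were 3 FS Baseline libraries without albumin (FS animals 13, 14 and 16) and 1 nearly empty FR8 library (CPF animal 1), so FS Baseline rests on 15 animals and CPF FR8 on 4. Levels are given as CPM (a library's counts of a gene scaled to 1000000 counts after TMM scaling) and are compared between samples, for 1 gene or for a sum of marker genes. They are never compared between genes, since no gene length was used. Where bulk tissue is measured, fewer cells of a type and less RNA per cell cannot be told apart. Symbols were matched by identifier, and the strand setting of the counting is not given in the sources used here. In the RefSeq annotation of another build the span of IGF1 overlaps 2 long noncoding genes and that of IGFALS 1 coding gene. Exons were not compared, so whether reads of those pairs were mixed is not known.

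The profiles of some libraries went against their timepoint labels. Each library was correlated with the median profile of every timepoint of its feeding group, itself and the IGF and insulin genes left out, over 10975 genes. Of the 88 libraries, 68 were closest to their own timepoint and the rest to another. Those closest to another on the same side of the gap between FR2 and FR8, or at a lower r, were not set apart. Across that gap, 12 were closest (r of at least 0.5) to a timepoint on the other side. They came from 5 animals: FS animals 7, 13, 14 and 16 and CPF animal 4. Albumin moved with this. It was higher at FR2 than at FR8 in 17 of the other 17 animals with both libraries, and in 1 of these 5. In the library labelled FR20 of CPF animal 4 the profile was closest to Baseline (r = 0.55), and in the library labelled FR8 of FS animal 16 as well (r = 0.78). The labels were kept, no library was moved, and changes of the 7 genes from Baseline are given with all animals and, as a check chosen after seeing the data, without these 5. These animals were picked by profiles that ran against the time course. Genes that follow that course tend to change more, with smaller errors, once such animals are left out. Larger changes, smaller adjusted p values and less overlap without them are therefore no independent support.

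**Figure D1:**
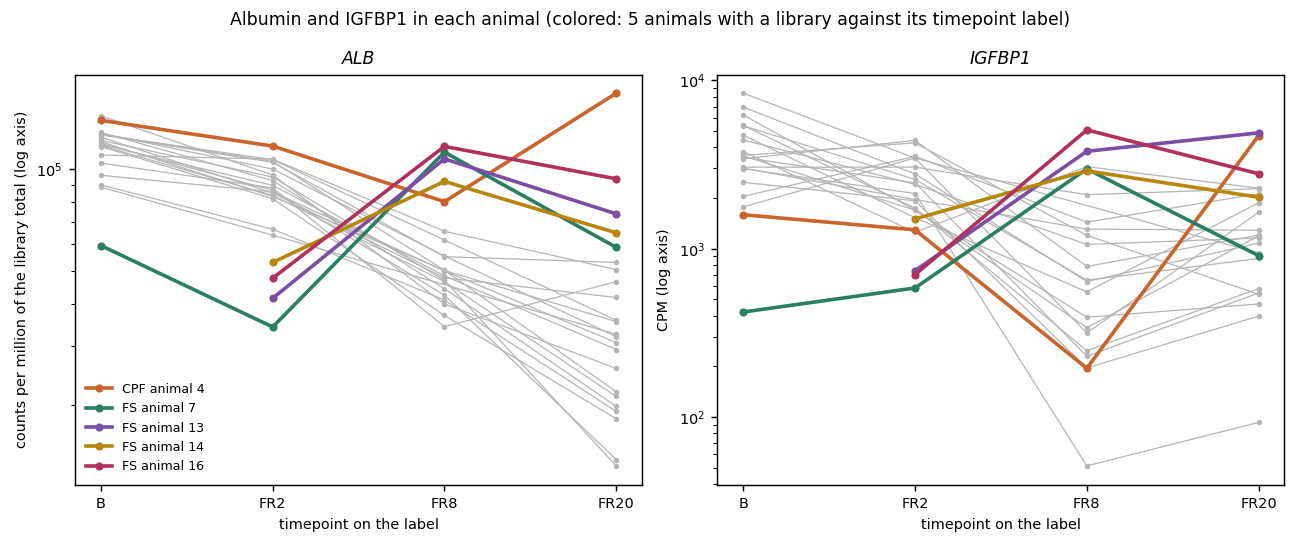
Level of ALB (left, counts per 1000000 of the library total) and IGFBP1 (right, CPM) on log axes by the timepoint on the label, with 1 line for each of the 23 animals; colored lines are the 5 animals with a library against its timepoint label, gray lines the others. The library labelled FR20 of CPF animal 4 held 4705 CPM of IGFBP1, and the library labelled Baseline of FS animal 7 held 421 CPM, the lowest Baseline value.

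In 2 further libraries, those of FS animal 8 at FR2 and FR8, many abundant genes had almost no reads. Of 4410 genes with a median above 20 CPM, 446 had at most 3 counts in the first and 443 in the second, against at most 3 such genes in each of the other 86 libraries. The 7 genes studied had 6 to 12099 counts in these libraries, and pathway and marker genes this touches are named below.

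In FS animals the 7 genes split the same way at each later timepoint: IGF1, IGFALS, IGFBP1 and FOXO1 fell, IRS1 rose, and GHR and INSR did not pass (a gene passes at an adjusted p under 0.05 in edgeR's quasi-likelihood test). That is 5 of 7 genes at FR2, where 41.4% of all 13667 genes tested passed, 5 of 7 at FR8 against 39.3%, and 5 of 7 at FR20 against 33.8%. By direction, 4 of 7 fell at each timepoint beside 21.1%, 19.5% and 16.4% of all genes, and 1 of 7 rose beside 20.3%, 19.9% and 17.4%. With a log2 fold change of at least 1 required as well, 3 of 7 remained at each timepoint, beside 11%, 11.8% and 9.94% of all genes. The median log2 fold change in FS animals over the 7 genes was −0.75 at FR2, −0.91 at FR8 and −0.88 at FR20, beside −0.04, 0.00 and 0.04 over all genes. In CPF animals 1 gene passed at FR2 (3.41% of all genes), 2 at FR8 (13.3%) and 0 at FR20 (0.893%). Those that passed fell, as 1.40% of all genes did at FR2 and 6.99% at FR8. At CPF FR20, where edgeR gave 0, IGF1, IGFALS and FOXO1 had an unadjusted p under 0.05, as 2249 of all 13667 genes did. There DESeq2 gave 1 of the 7 genes, beside 410 of all genes, and the likelihood ratio test gave 1. Without the 5 animals 5 of 7 genes passed at each FS timepoint (all genes 51.3%, 53.7% and 44.8%), and the CPF counts were 1 at FR2, 3 at FR8 and 3 at FR20 (5.57%, 18.3% and 12.1%). Between later timepoints, 1 of 7 genes passed for FS FR8 against FR2 (28.4% of all genes), 0 for FS FR20 against FR8 (6.39%), 0 for CPF FR8 against FR2 (7.21%) and 0 for CPF FR20 against FR8 (0.0220%). At an unadjusted p under 0.05 the last 3 counts were 1, 2 and 1, beside 2962, 3632 and 1484 of all 13667 genes. With DESeq2 they were 0, 1 and 0, beside 1337, 1778 and 41 of all genes. Leaving out the 5 animals made the counts for FR8 against FR2 2 in FS (49.1%) and 2 in CPF animals (13.8%).

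**Figure D2:**
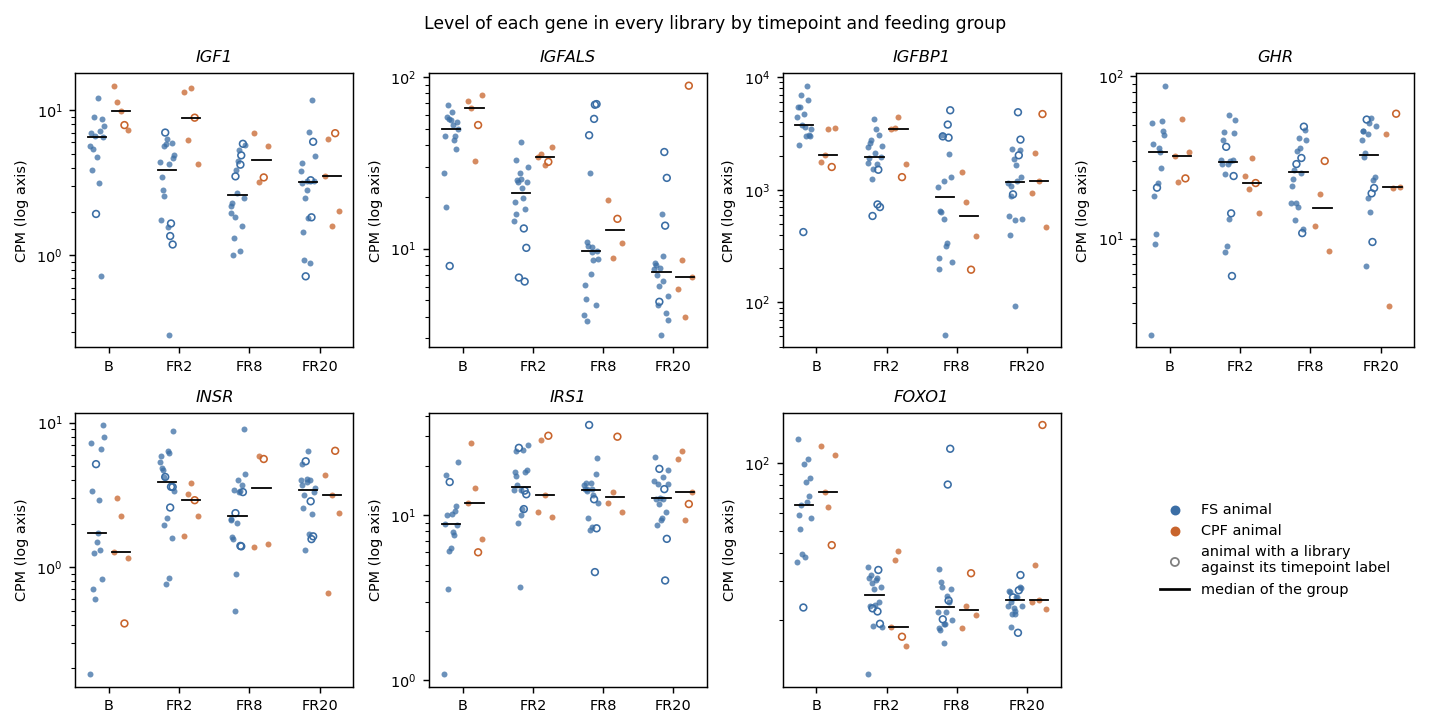
CPM (log axis) of each gene in every library by timepoint; blue points are FS animals, orange points CPF animals, open circles the 5 animals with a library against its timepoint label, and black lines group medians. FS medians of IGFBP1 go from 3776 CPM at B to 855 CPM at FR8, and those of IGFALS from 49.5 to 7.29 CPM at FR20.

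IGFBP1, the insulin-repressed binding protein, was lower at all later timepoints in FS animals, with its deepest values at FR8. At Baseline its level lay between 421 and 8400.2 CPM, with a median of 3776 CPM (15 animals). The median was 1943 CPM at FR2 (585 to 4257) and 855 CPM at FR8 (51.3 to 5082), and at FR20 it was 1176 CPM (93.0 to 4881). The groups overlapped: 6 of 18 FR8 libraries and 2 of 18 FR20 libraries lay below the lowest Baseline value, that of FS animal 7. Within animals IGFBP1 was lower than at Baseline in 12 of 15 at FR2 and in 14 of 15 at FR8 and at FR20. The log2 fold change was −1.11 ± 0.38 (SE) at FR2 (edgeR quasi-likelihood test, Benjamini-Hochberg adjusted p = 0.0151), −2.23 ± 0.38 at FR8 (adjusted p = 4.21e-05) and −2.11 ± 0.38 at FR20 (adjusted p = 4.25e-05).

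From FR2 to FR8 IGFBP1 fell by 1.12 on the log2 scale in FS animals (SE 0.36, edgeR adjusted p = 0.0314). It lost its call in 9 of 18 fits that left out 1 FS animal (animal 2, 3, 4, 5, 9, 10, 11, 12 or 18), with values from −1.41 to −0.89 over all 18 and an adjusted p of up to 0.0884. From FR8 to FR20 the difference was 0.12 ± 0.36 (adjusted p = 0.898), so of the FS medians, in the order B, FR2, FR20 and FR8, the lowest pair did not differ beyond its error.

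With the 5 animals left out, the FR8 and FR20 changes of IGFBP1 were larger in FS animals. Baseline then ran from 2483 to 8400.2 CPM, and 13 of 14 FR8 libraries and 14 of 14 FR20 libraries lay below it. The edgeR log2 fold change was −0.91 ± 0.30 at FR2 (adjusted p = 0.0125), −2.87 ± 0.30 at FR8 (adjusted p = 6.02e-10) and −2.30 ± 0.30 at FR20 (adjusted p = 8.35e-08). FR8 against FR2 was −1.96 ± 0.30 (adjusted p = 2.09e-06 in edgeR). FS animal 10 gave the lowest values of the gene, 51.3 CPM at FR8 and 93.0 CPM at FR20, after 2991 CPM at Baseline and 2129 CPM at FR2.

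In CPF animals IGFBP1 did not pass at any timepoint. CPF animals 1 to 5 had 1772, 2046, 3430.0, 1593 and 3563 CPM at Baseline. At FR2 they had 3464, 3541, 4402, 1295 and 1696 CPM. At FR2, 3 animals were above their own Baseline and 2 below, and the log2 fold change was 0.11 ± 0.68 (edgeR adjusted p = 0.948). At FR8 CPF animals 2 to 5 had 1439, 785, 195 and 392 CPM, all below the lowest CPF Baseline value. The FR8 log2 fold change was −2.11 ± 0.73 (edgeR adjusted p = 0.0633), close in size to the FS value and with a wider error. At FR20 they had 943, 2122, 1206, 4705 and 469.9 CPM, the 4705 being the library of CPF animal 4 that goes against its label. The FR20 log2 fold change was −0.53 ± 0.68 with all 5 CPF animals (edgeR adjusted p = 0.775), and −1.44 ± 0.57 without the 5 animals (adjusted p = 0.11). The FR8 change passed when they were left out, at −1.96 ± 0.63 (edgeR adjusted p = 0.0354).

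IGFALS, the acid-labile subunit, was below Baseline at all later timepoints in FS animals, with its lowest median at FR20. From FR8 to FR20 the difference was −0.82 ± 0.31 and did not pass (edgeR adjusted p = 0.118). Its Baseline level was 7.92 to 68.1 CPM, with a median of 49.5 CPM. The median was 21.2 CPM at FR2 (6.43 to 41.5), then 9.66 CPM at FR8 (3.79 to 69.4) and 7.29 CPM at FR20 (3.14 to 36.5). The groups overlapped, although IGFALS was below Baseline in 15 of 15 animals at FR2 and FR20 and in 14 of 15 at FR8. The log2 fold change was −1.21 ± 0.32 at FR2 (edgeR adjusted p = 0.00188), −1.87 ± 0.33 at FR8 (adjusted p = 3.63e-05) and −2.69 ± 0.33 at FR20 (adjusted p = 2.22e-08).

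Leaving out the 5 animals lowered the SE of the IGFALS changes, and the FR20 group no longer overlapped Baseline. The 14 FS animals then had 17.5 to 68.1 CPM at Baseline and 3.14 to 15.9 CPM at FR20. The edgeR log2 fold change was −0.99 ± 0.17 at FR2 (adjusted p = 6.33e-06), −2.51 ± 0.18 at FR8 (adjusted p = 6.08e-16) and −2.78 ± 0.18 at FR20 (adjusted p = 3.75e-17). The step from FR2 to FR8 did not pass with all animals (−0.66 ± 0.31, edgeR adjusted p = 0.138) and passed without them (−1.52 ± 0.18, adjusted p = 8.94e-10). That from FR8 to FR20 did not pass without them either (−0.27 ± 0.18, edgeR adjusted p = 0.304).

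In CPF animals IGFALS fell at FR8. At Baseline CPF animals 1 to 5 had 72.6, 65.5, 32.5, 52.4 and 78.9 CPM. At FR2 they had 34.2, 35.7, 30.8, 32.0 and 39.1 CPM. All 5 were below their own Baseline at FR2, yet the change did not pass (−0.77 ± 0.58, edgeR adjusted p = 0.479). At FR8 CPF animals 2 to 5 had 19.3, 8.83, 14.9 and 10.8 CPM, below every CPF Baseline value, and IGFALS fell by 2.27 on the log2 scale (SE 0.63, edgeR adjusted p = 0.0195). Leaving out CPF animal 5 ended this call (adjusted p = 0.106). At FR20 they had 5.79, 8.54, 4.02, 88.8 and 6.83 CPM. With the library of CPF animal 4 in, the FR20 change did not pass (−2.18 ± 0.58, edgeR adjusted p = 0.0828), and without the 5 animals it did (−3.30 ± 0.34, adjusted p = 4.96e-09).

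IGF1, the hormone itself, fell in FS animals at each later timepoint. IGF1 was thinly covered in this liver table, with 3 to 173 counts in an FS library, so single values carry a large counting error. Its FS level was 0.728 to 12.1 CPM at Baseline (median 6.51), 0.284 to 7.0 CPM at FR2 (median 3.86), 1.00 to 5.86 CPM at FR8 (median 2.59) and 0.719 to 11.8 CPM at FR20 (median 3.21). The groups overlapped at every timepoint, with 1, 0 and 1 of 18 libraries under the lowest Baseline value. IGF1 was below Baseline in 13 of 15 animals at FR2 and in 12 of 15 at FR8 and at FR20. The log2 fold change was −0.75 ± 0.27 at FR2 (edgeR adjusted p = 0.0221), −0.91 ± 0.27 at FR8 (adjusted p = 0.00808) and −0.88 ± 0.27 at FR20 (adjusted p = 0.0105). The FR2 call was lost in 2 of 18 fits that left out 1 animal, those without FS animal 2 or FS animal 5, with an adjusted p of up to 0.0537. The values without the 5 animals were −0.75 ± 0.25, −1.21 ± 0.25 and −0.89 ± 0.24 in that order (edgeR adjusted p = 0.00927, 7.13e-05 and 0.00294).

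In CPF animals IGF1 overlapped Baseline at FR2 and lay below it later. CPF animals 1 to 5 had 14.7, 11.3, 9.83, 7.88 and 7.31 CPM at Baseline. At FR2 they had 13.2, 6.27, 14.1, 8.86 and 4.26 CPM. At FR8 CPF animals 2 to 5 had 6.94, 3.18, 3.44 and 5.65 CPM, and at FR20 the 5 animals had 3.52, 6.28, 1.60, 6.93 and 2.01 CPM. Every FR8 and FR20 value lay under the lowest CPF Baseline value, but no change passed: the log2 fold change was −0.12 ± 0.47 at FR2 (edgeR adjusted p = 0.917), −0.96 ± 0.51 at FR8 (adjusted p = 0.22) and −1.37 ± 0.47 at FR20 (adjusted p = 0.141). With the 5 animals left out the FR20 change passed (−1.74 ± 0.45, edgeR adjusted p = 0.00788).

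GHR, the growth hormone receptor, did not pass in any comparison, and its values spread widely within each group. In FS animals the median was 34.1 CPM at Baseline (2.54 to 87.7), 29.5 CPM at FR2 (5.87 to 57.6), 25.9 CPM at FR8 (10.8 to 49.0) and 32.7 CPM at FR20 (6.79 to 55.4). The log2 fold changes were −0.07 ± 0.25, −0.06 ± 0.24 and 0.12 ± 0.24 in that order (edgeR adjusted p = 0.846, 0.882 and 0.74). The FS groups overlapped throughout. At Baseline CPF animals 1 to 5 had 32.3, 22.3, 54.7, 23.5 and 34.0 CPM, and at FR2 24.4, 20.3, 31.6, 22 and 14.4 CPM. At FR8 CPF animals 2 to 5 had 11.9, 18.8, 30.1 and 8.32 CPM, overlapping Baseline, with a log2 fold change of −1.01 ± 0.47 (edgeR adjusted p = 0.157). At FR20 the 5 animals had 44.2, 3.85, 20.6, 58.9 and 20.9 CPM, the lowest and the highest CPF values of the gene (−0.40 ± 0.44, edgeR adjusted p = 0.707). GHR was below Baseline in 5 of 5 CPF animals at FR2 (−0.58 ± 0.44, edgeR adjusted p = 0.482). With the 5 animals left out no change of GHR passed either. The FS values were then −0.05 ± 0.26, −0.25 ± 0.26 and 0.09 ± 0.26 at FR2, FR8 and FR20 (edgeR adjusted p = 0.905, 0.443 and 0.812). The CPF values were −0.64 ± 0.49, −1.30 ± 0.54 and −0.83 ± 0.48 (edgeR adjusted p = 0.48, 0.0958 and 0.304), and the 3 FR8 libraries left lay below the lowest CPF Baseline value.

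INSR, the insulin receptor, had few counts in these libraries. FS Baseline libraries held 0.181 to 9.61 CPM with a median of 1.71 CPM, the lowest resting on 1 count. The FS median was 3.90 CPM at FR2 (0.759 to 8.73), 2.26 CPM at FR8 (0.494 to 8.95) and 3.40 CPM at FR20 (1.31 to 6.34). No change passed: the log2 fold change was 0.51 ± 0.28 at FR2 (edgeR adjusted p = 0.153), 0.00 ± 0.28 at FR8 (adjusted p = 0.998) and 0.37 ± 0.28 at FR20 (adjusted p = 0.324). CPF animals 1 to 5 had 1.28, 3.01, 2.25, 0.407 and 1.15 CPM at Baseline and 1.63, 3.19, 3.80, 2.90 and 2.25 CPM at FR2. All 5 were above their own Baseline at FR2, and the change did not pass (0.67 ± 0.52, edgeR adjusted p = 0.501). At FR8 CPF animals 2 to 5 had 1.37, 5.91, 5.59 and 1.44 CPM, and at FR20 the 5 had 4.31, 0.657, 3.13, 6.37 and 2.38 CPM, both overlapping Baseline (0.86 ± 0.56 and 0.91 ± 0.52, edgeR adjusted p = 0.322 and 0.404). Without the 5 animals, CPF animal 4 with its low Baseline value among them, the CPF values were smaller, at 0.45 ± 0.59, 0.38 ± 0.64 and 0.40 ± 0.58 (edgeR adjusted p = 0.707, 0.751 and 0.741). The FS values were then 0.51 ± 0.30, 0.07 ± 0.30 and 0.44 ± 0.30 (edgeR adjusted p = 0.163, 0.87 and 0.246).

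IRS1, the substrate that INSR phosphorylates, rose in FS animals. The FS level was 1.09 to 21.1 CPM at Baseline (median 8.82), 3.67 to 26.8 CPM at FR2 (median 14.8), 4.53 to 35.2 CPM at FR8 (median 14.2) and 4.03 to 22.4 CPM at FR20 (median 12.7). The groups overlapped, with 4, 2 and 1 of 18 libraries above the highest Baseline value. IRS1 was above Baseline in 12, 13 and 10 of 15 animals. The log2 fold change was 0.85 ± 0.20 at FR2 (edgeR adjusted p = 0.000754), 0.64 ± 0.20 at FR8 (adjusted p = 0.0102) and 0.58 ± 0.20 at FR20 (adjusted p = 0.0226). The FR20 call was lost without FS animal 1, 2, 5 or 17 (adjusted p up to 0.0719). FS animal 1 had the lowest Baseline value, 6 counts, and without it the FR20 log2 fold change was 0.46. Leaving out the 5 animals gave 0.78 ± 0.20, 0.62 ± 0.20 and 0.63 ± 0.20 (edgeR adjusted p = 0.00106, 0.00739 and 0.00911).

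In CPF animals IRS1 did not pass. CPF animals 1 to 5 had 11.9, 27.5, 14.7, 5.97 and 7.18 CPM at Baseline, 10.5, 28.4, 13.2, 30.3 and 9.77 CPM at FR2, and 21.9, 24.5, 9.38, 11.7 and 13.9 CPM at FR20. At FR8 CPF animals 2 to 5 had 11.8, 13.9, 29.9 and 10.4 CPM. The groups overlapped, and CPF animal 4 went from the lowest Baseline value to the highest value at FR2. The log2 fold changes were 0.41 ± 0.36, 0.33 ± 0.38 and 0.33 ± 0.36 at FR2, FR8 and FR20 (edgeR adjusted p = 0.552, 0.617 and 0.7). Leaving out the 5 animals, CPF animal 4 among them, gave 0.02 ± 0.37, −0.20 ± 0.41 and 0.26 ± 0.37 (adjusted p = 0.982, 0.804 and 0.721), so the direction at FR8 turned.

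FOXO1, the factor that insulin signalling holds out of the nucleus, fell in FS animals by a like amount at all 3 timepoints. Its FS level was 22.8 to 128 CPM at Baseline, with a median of 65.0 CPM. The median was 25.9 CPM at FR2 (11.5 to 34.7), 23.0 CPM at FR8 (15.8 to 116) and 24.7 CPM at FR20 (17.6 to 31.8). The groups overlapped, with 6, 9 and 6 of 18 libraries under the lowest Baseline value, that of FS animal 7. FOXO1 was below Baseline in 15 of 15 animals at FR2 and FR8 and in 14 of 15 at FR20. The log2 fold change was −1.43 ± 0.21 at FR2 (edgeR adjusted p = 3.2e-07), −1.31 ± 0.21 at FR8 (adjusted p = 3.9e-06) and −1.49 ± 0.21 at FR20 (adjusted p = 1.51e-07). From FR2 to FR8 the difference was 0.12 ± 0.20 (edgeR adjusted p = 0.7).

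FOXO1 did not overlap between Baseline and any later FS group once the 5 animals were left out. The 14 Baseline values then ran from 36.4 to 128 CPM, and the highest later value was 34.7 CPM, at FR2. The edgeR log2 fold change was −1.42 ± 0.14 at FR2 (adjusted p = 2.61e-11), −1.57 ± 0.14 at FR8 (adjusted p = 5.98e-13) and −1.50 ± 0.14 at FR20 (adjusted p = 4.28e-12). The libraries labelled FR8 of FS animals 13 and 16 held 80.4 and 116 CPM, inside the Baseline range.

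FOXO1 also fell in CPF animals at FR2 and FR8. CPF animals 1 to 5 had 119.7, 74.2, 64.1, 43.2 and 109 CPM at Baseline. At FR2 they had 18.7, 37.2, 40.6, 16.9 and 15.4 CPM, and at FR8 CPF animals 2 to 5 had 18.5, 23.2, 32.4 and 21.1 CPM. Neither later group overlapped Baseline. The log2 fold change was −1.74 ± 0.37 at FR2 (edgeR adjusted p = 0.00833) and −1.96 ± 0.40 at FR8 (adjusted p = 0.00327). The FR2 call was lost without CPF animal 1 or CPF animal 5 (adjusted p up to 0.116). At FR20 they had 24.1, 35.3, 24.5, 148 and 22.5 CPM, and the change did not pass (−1.03 ± 0.37, edgeR adjusted p = 0.178). With the 5 animals left out, the 148 CPM of CPF animal 4 among the values removed, it passed (−1.83 ± 0.27, adjusted p = 4.37e-06).

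**Figure D3:**
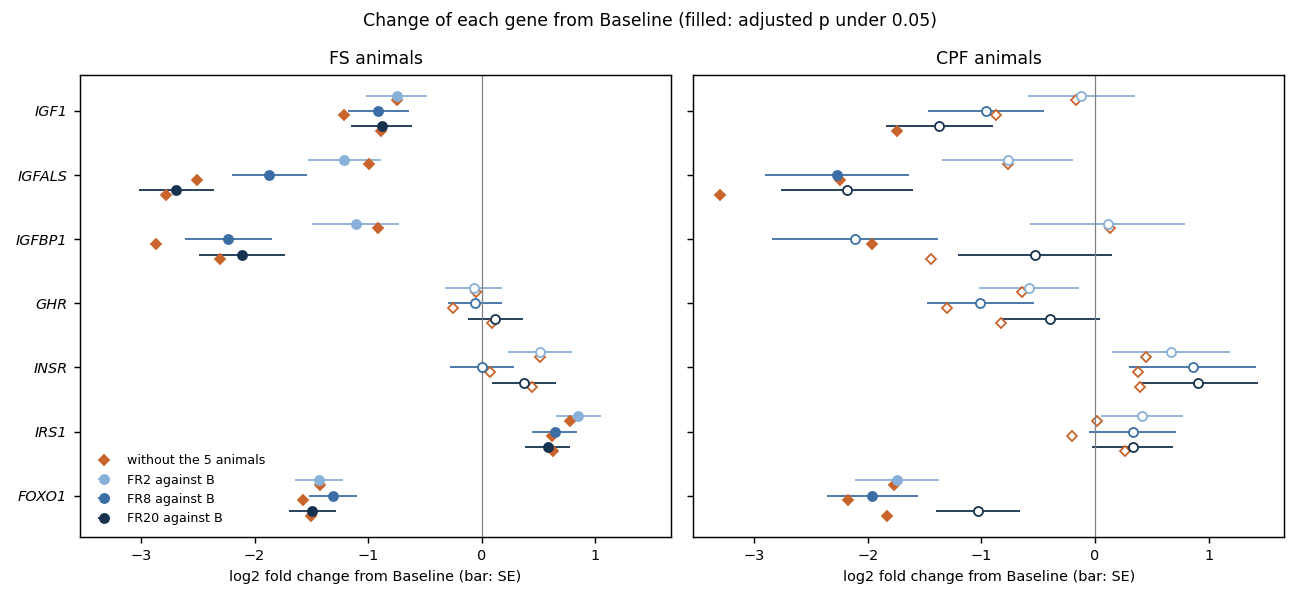
Log2 fold change from Baseline with its SE for the 7 genes in FS (left) and CPF (right) animals at FR2, FR8 and FR20 (circles, light to dark blue), and without the 5 animals with a library against its label (orange diamonds); filled symbols have an adjusted p under 0.05. In CPF animals the FR20 value of FOXO1 goes from −1.03 to −1.83 and that of IGFALS from −2.18 to −3.30 when the 5 animals are left out.

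Whether feeding altered these changes was tested as the CPF change minus the FS change in the same fit. None of the 7 genes passed at FR2, FR8 or FR20, where 0% of all genes passed. At an unadjusted p under 0.05 the count was 0 of 7 at each timepoint as well, beside 397, 468 and 521 of all 13667 genes. DESeq2 and the likelihood ratio test gave 0 of 7, where DESeq2 gave 0, 2 and 2 of all genes. The differences ran from −0.51 (GHR) to 1.22 (IGFBP1) at FR2, from −0.95 (GHR) to 0.86 (INSR) at FR8 and from −0.52 (GHR) to 1.59 (IGFBP1) at FR20. For IGFBP1 the SE was 0.78 at FR2 and at FR20, a wide error for the comparison of 5 CPF with 18 FS animals. Leaving out the 5 animals made the IGFBP1 difference 1.04 ± 0.65 at FR2 and 0.86 ± 0.65 at FR20 (edgeR adjusted p = 0.875 and 1).

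Levels of CPF and FS animals were also compared at each timepoint. At Baseline, where 0.0342% of 11688 genes passed, none of the 7 did. IGFBP1 had a CPF median of 2046 CPM against 3776 CPM in FS animals (log2 difference −0.79 ± 0.37, edgeR adjusted p = 0.653), and IGF1 one of 9.83 against 6.51 CPM (0.77 ± 0.37, adjusted p = 0.62). IGF1 alone of the 7 had an unadjusted p under 0.05 at Baseline, as 895 of the 11688 genes did. At FR2 IGF1 was 8.86 against 3.86 CPM in the median (1.36 ± 0.44, edgeR adjusted p = 0.773). IGF1 and IGFALS had an unadjusted p under 0.05 at FR2, as 664 of 11892 genes did. At FR8 none of the 7 did (618 of 11951 genes). At FR20 it was IGFALS and FOXO1 (400 of 12307 genes), both with the library of CPF animal 4 as the highest value. At FR2, FR8 and FR20 0% of all genes passed. Those FR20 differences without the 5 animals were −0.14 ± 0.31 for IGFALS and 0.15 ± 0.13 for FOXO1 (edgeR adjusted p = 0.978 and 0.96). DESeq2 gave 0 of 7 genes at each of these timepoints, beside 70, 0, 9 and 2 of all genes at B, FR2, FR8 and FR20.

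Animals that later died were compared with those that lived, with a term for feeding, and none of the 7 genes passed at any timepoint, nor did any other gene (0%). FOXO1 at FR2 alone had an unadjusted p under 0.05, beside 656 of 11892 genes at FR2. DESeq2 gave 0 of 7 at each timepoint, beside 17, 3, 0 and 0 of all genes at B, FR2, FR8 and FR20. At FR2 the FS animals that died (2, 12 and 15) had 34.7, 30.8 and 24.1 CPM of FOXO1, and the CPF animals that died (2 and 3) had 37.2 and 40.6 CPM. The 18 animals that lived had 11.5 to 33.5 CPM with a median of 22.9 CPM, so the groups overlapped. The log2 difference was 0.59 ± 0.20 (edgeR adjusted p = 0.702). Other differences between died and lived ran from −1.26 (IGFALS at FR8) to 0.92 (INSR at Baseline), and IGFALS at FR8 was −0.38 ± 0.41 without the 5 animals, none of which died.

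Around the 7 genes, a list of 62 other genes of GH, IGF and insulin signalling was written, of which 48 were in the table and 45 had enough counts to be tested. In FS animals 11 rose and 10 fell at FR2, 11 rose and 12 fell at FR8, and 8 rose and 9 fell at FR20, beside the 41.4%, 39.3% and 33.8% of all genes that passed. The median log2 fold change of the list was 0.04, −0.03 and 0.09. Without the 5 animals 13 rose and 13 fell at FR2, 13 rose and 16 fell at FR8, and 14 rose and 13 fell at FR20. Of all genes 51.3%, 53.7% and 44.8% passed in those comparisons. In the list, rises and falls were about equally many. In CPF animals 2 rose and 0 fell at FR2 (3.41% of all genes passed), 2 rose and 2 fell at FR8 (13.3%), and 0 passed at FR20 (0.893%). The CPF counts without the 5 animals were 2 and 0 at FR2 (5.57%), 4 and 3 at FR8 (18.3%), and 0 and 4 at FR20 (12.1%). Those 4 were GRB14, PTPN1, RPS6KB1 and FOXO3, from −0.45 (RPS6KB1) to −2.05 (FOXO3) on the log2 scale. PTPN1 was not lower throughout. With all animals its CPF median was 37.8 CPM at Baseline, 86.7 at FR2, 17.8 at FR8 and 19.0 at FR20. Its FS medians were 30.8, 89.2, 21.8 and 15.6 CPM. The calls that the genes named below have with all 88 libraries were also made, in the same direction, without the 5 animals.

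Of the other binding proteins and proteases 7 were tested, of which 2 rose and 3 fell at FR2, 1 rose and 3 fell at FR8, and 1 rose and 2 fell at FR20. Of all genes 20.3% rose and 21.1% fell at FR2, 19.9% and 19.5% at FR8, and 17.4% and 16.4% at FR20. The stanniocalcins STC1 and STC2, secreted glycoproteins that block IGF binding protein proteases, rose at FR2. STC1 had a Baseline median of 0.526 CPM (0 to 1.81) and an FR2 median of 4.82 CPM (0.970 to 24.5), and rose by 3.10 ± 0.46 on the log2 scale (edgeR adjusted p = 8.83e-07). STC1 was still up at FR8 (1.27 ± 0.47, adjusted p = 0.03) and FR20 (1.92 ± 0.46, adjusted p = 0.00198). STC2 had a median of 0.709 CPM at Baseline and 1.93 CPM at FR2 (1.49 ± 0.36, edgeR adjusted p = 0.00105). PAPPA2, one of the proteases, fell at FR2 (−1.38 ± 0.48, edgeR adjusted p = 0.017) from a median of 0.797 to 0.265 CPM, a few counts per library. Of the other binding proteins IGFBP5 and IGFBP7 fell at all 3 timepoints, with log2 fold changes of −1.0, −0.89 and −0.83 for IGFBP5 and of −0.42, −0.59 and −0.51 for IGFBP7 (edgeR, highest adjusted p = 0.0332). STC1 rose in CPF animals at FR2 too (3.36 ± 0.80, edgeR adjusted p = 0.0163).

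Inside the cell, of 7 adaptors 2 rose and 1 fell at FR2, 4 rose and 1 fell at FR8, and 3 rose and 1 fell at FR20. Of 8 genes of PI3 kinase and AKT 1 rose and 2 fell, 3 rose and 1 fell, and 0 rose and 1 fell, and of 9 genes of the mTOR and GSK3 branch 4 rose and 0 fell, 3 rose and 1 fell, and 4 rose and 1 fell. Of 4 genes that restrain insulin signalling 1 rose and 1 fell, 0 rose and 1 fell, and 0 rose and 1 fell. Of 4 genes of GH signalling 1 rose at FR2 and 1 fell at FR8, and of 2 other receptors tested 1 fell at FR2 and at FR8. Beside these stand the 20.3%, 19.9% and 17.4% of all genes that rose and the 21.1%, 19.5% and 16.4% that fell at the 3 timepoints, and with so few genes a list several of the counts lie near those shares. The adaptor that fell was GRB14, which binds and restrains INSR. GRB14 went from a Baseline median of 25.3 CPM (13.5 to 45.2) to 12.7 CPM at FR2 (6.70 to 25.7), with a log2 fold change of −1.24 ± 0.20 (edgeR adjusted p = 1.72e-06), and it also fell in CPF animals at FR8 (−1.90 ± 0.39, adjusted p = 0.00298). SHC1, an adaptor toward the RAS pathway, rose at FR8 by 0.77 ± 0.13 (edgeR adjusted p = 9.7e-06), from a Baseline median of 29.9 to 52.0 CPM, and at FR20 by 0.55 ± 0.13 (adjusted p = 0.00125). PIK3R1, a regulatory subunit of PI3 kinase, rose at FR2 by 1.85 ± 0.49 (edgeR adjusted p = 0.00199) and at FR8 by 1.30 ± 0.49 (adjusted p = 0.0328), from a Baseline median of only 0.238 CPM. GSK3A, a kinase that AKT inhibits, rose at FR2 by 0.88 ± 0.14 (edgeR adjusted p = 1.56e-06) and at FR20 by 0.49 ± 0.14 (adjusted p = 0.00566). GRB2 rose in both feeding groups at FR2, by 0.47 ± 0.07 in FS and 0.42 ± 0.12 in CPF animals (edgeR adjusted p = 1.85e-07 and 0.036). PRLR, the prolactin receptor, fell at FR2 by 1.20 on the log2 scale (SE 0.50, edgeR adjusted p = 0.0449) from a median of 0.526 CPM, and this call was lost without the 2 libraries of FS animal 8 (adjusted p = 0.0625). PRLR fell at FR8 as well (−1.32 ± 0.49, edgeR adjusted p = 0.0313), to a median of 0.163 CPM, and this call was kept without those libraries (adjusted p = 0.0372).

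FOXO3, a relative of FOXO1, and both tested targets of FOXO1, PDK4 and PCK1, fell in FS animals at FR8 and FR20. Of all genes 19.5% fell at FR8 and 16.4% at FR20, and 2 targets are too few to set against those shares. At FR2 FOXO3 fell by 0.77 (SE 0.31, edgeR adjusted p = 0.0445) and FOXO4 by 0.91 (SE 0.25, adjusted p = 0.00271). Without the 2 libraries of FS animal 8 the FOXO3 call at FR2 was lost (−0.64 ± 0.30, edgeR adjusted p = 0.0825), and FOXO4 was at −0.72 ± 0.13 at FR2 and −0.41 ± 0.12 at FR8 (adjusted p = 6.69e-06 and 0.00706). FOXO3 fell at FR8 by 1.53 on the log2 scale (SE 0.31, edgeR adjusted p = 0.000203), from a median of 8.17 to 2.77 CPM, and at FR20 by 1.21 (SE 0.31, adjusted p = 0.00232). It fell in CPF animals at FR8 by 2.35 (SE 0.62, edgeR adjusted p = 0.0143). PDK4, the kinase that shuts pyruvate dehydrogenase, fell at FR8 by 1.99 (SE 0.50, edgeR adjusted p = 0.00432) and at FR20 by 1.71 (SE 0.50, adjusted p = 0.0102), from a Baseline median of 486 CPM to 79.2 and 122 CPM. PDK4 had 0 counts in both libraries of FS animal 8 described above, and without them its values were −1.83 ± 0.40 and −1.79 ± 0.39 (edgeR adjusted p = 0.000915 and 0.000541). PCK1, a key enzyme of gluconeogenesis, fell at FR8 by 1.38 (SE 0.35, edgeR adjusted p = 0.00284) and at FR20 by 1.25 (SE 0.35, adjusted p = 0.00568). At FR2 neither PDK4 nor PCK1 passed. In CPF animals neither passed at FR2, FR8 or FR20. Like PDK4, FOXO4, GRB10, GAB1 and INPPL1 had 0 counts in both libraries of FS animal 8, and without them GRB10 and INPPL1 passed at FR2 (0.41 ± 0.10 and 0.37 ± 0.12, edgeR adjusted p = 0.00138 and 0.0109), which they did not with all libraries.

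**Figure D4:**
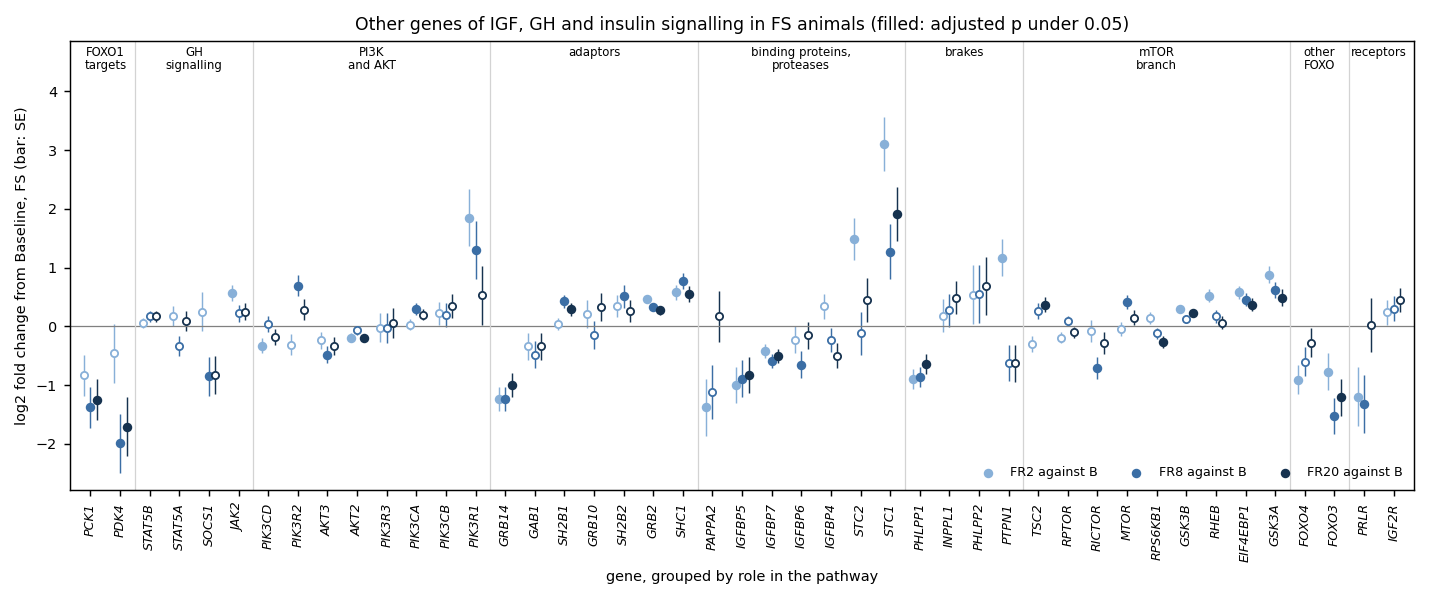
Log2 fold change from Baseline with its SE in FS animals at FR2, FR8 and FR20 (light to dark blue) for the 45 other genes of GH, IGF and insulin signalling that were tested, grouped by role; filled points have an adjusted p under 0.05. STC1 stands highest at FR2 (3.10) and PDK4 lowest at FR8 (−1.99).

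Over the 88 libraries, likeness of pattern was measured as Pearson's r. The genes most like IGFBP1 in log2 CPM, of 7791 with a symbol and a mean of at least 1 CPM, were PER1 (r = 0.83), KLF9 (0.81) and LPIN1 (0.80). IGFALS was most like the plasma protein genes ITIH1 (0.91) and PROC (0.91), and GSTZ1 (0.89). IGF1 had weaker likenesses, C1orf43 (0.59), ERP29 (0.57) and EMC9 (0.56). Among the 7 genes, IGFBP1 and IGFALS had r = 0.63, IGFALS and FOXO1 0.60, IGF1 and IGFALS 0.52, and IGFBP1 and FOXO1 0.52. GHR and INSR had r = 0.62 and INSR and IRS1 0.54, while GHR and IGF1 had r = −0.02. These correlations are descriptions: the libraries share animals, timepoints and sequencing depth.

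Markers of the liver's cells were followed over the same timepoints, and their sums did not all move alike. The summed level of 7 hepatocyte markers had FS medians of 179124 CPM at Baseline (67202 to 208303), 121846 CPM at FR2 (43240.0 to 141817), 63743 CPM at FR8 (43730.2 to 174599) and 39113 CPM at FR20 (14603 to 131057). ALB alone had FS medians of 141496, 95802, 49875 and 27892 CPM, so most counts in this sum are those of ALB. Of these 7, 5 fell at FR2 and 4 at FR8 and at FR20 (ALB, CYP2E1, TF and TTR), beside 21.1%, 19.5% and 16.4% of all genes. APOB changed by 0.01 at FR20 (edgeR adjusted p = 0.985). The summed level of 3 Kupffer and macrophage markers had FS medians of 388, 334, 287 and 304 CPM over the 4 timepoints, that of 2 endothelial markers 111, 132, 134 and 130.2 CPM, and that of 3 T and NK cell markers 20.1, 19.3, 19.4 and 18.4 CPM. That of 5 stellate cell and fibroblast markers had medians of 942, 517, 473 and 917 CPM, and that of 2 erythroid markers 255, 244, 120.3 and 109 CPM. These sums hide single markers. Of the Kupffer and macrophage markers 1 rose and 2 fell at FR20, beside 17.4% and 16.4% of all genes. Of the stellate cell and fibroblast markers 1 rose and 3 fell at FR2, beside 20.3% and 21.1%. Most counts were those of C1QA in the Kupffer and macrophage sum and of HBB in the erythroid sum. The markers APOA1 (hepatocyte), COL1A2 (fibroblast), HBB and ALAS2 (erythroid) and CD3D (T cell) had 0 counts in both libraries of FS animal 8 described above. The FS sums and tests of these markers at FR2 and FR8 include those libraries. The neutrophil marker S100A8 rose by 3.29 at FR2 (edgeR adjusted p = 0.000137), within a median of 3.65 CPM. ACTA1, the single striated muscle marker in the table, had FS medians of at most 0.177 CPM and a highest value of 68.4 CPM. Without the 5 animals the FS medians of the hepatocyte sum were 180654, 125342, 57063 and 32452 CPM. In CPF animals the hepatocyte sum had medians of 164421, 122601, 63128 and 34196 CPM. The part of these shifts in the fall of IGFALS, IGFBP1, IGF1 and FOXO1 was not tested.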

How the data were processed

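Liver biopsies of 23 pigs at 4 timepoints gave 92 single-read libraries. The authors aligned reads with TopHat 1.5.0 to Sscrofa10.2, sorted them with SAMtools, counted them per Ensembl gene with HTSeq and deposited raw counts in 1 table, not normalized and not pooled. CASAVA 1.8.2 and edgeR 3.2.4 also stand in their processing notes. Symbols came from a gene name table that held 11804 of the 25322 identifiers. The IGF and insulin genes, the gene lists and the comparisons were chosen with earlier results of these data known.

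Counts were analyzed with edgeR 4.0.16 in R 4.3.3 (DESeq2 1.42.0 as an alternative), with figures from Python 3.11.15 and matplotlib 3.10.9. Genes whose CPM summed over libraries to 10 or more were kept, TMM scaling was applied, and the quasi-likelihood F test (2-sided) was used, Benjamini-Hochberg adjusted over all genes. Changes were fitted on 88 libraries, with 1 term per animal (a block) and timepoint terms within FS and within CPF. Feeding groups at 1 timepoint were compared without other terms, and died against lived with a term for feeding. Depth, 6877117 to 16613261 counts per library, limits genes of few counts. CPM values in the text use TMM scaling, log2 CPM a prior count of 2.

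The animal code in the sample titles pairs the libraries. Residuals of the same animal correlated with a median r of 0.23 (93 of 126 pairs over 0.1), against −0.02 for different animals (652 of 2391). The lowest chi-square per degree of freedom between libraries of 1 group was 27, so none was a repeat of another library of its group. Libraries of different timepoints or feeding groups were not compared in this way.

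Genes named beyond the 7 are, of the pathway list, the 3 that rose and the 3 that fell most among those that passed at each FS timepoint, and the 3 genes most like IGFBP1, IGF1 and IGFALS. STC1, GRB2, GRB14 and FOXO3 in CPF animals, IGFBP5, IGFBP7, FOXO4, GRB10, GAB1, INPPL1, PTPN1, RPS6KB1 and RICTOR were named after their values were seen. The tests were checked on simulated counts. No sequence was used here. Alternatives were RLE size factors, 2 other filters, DESeq2, the likelihood ratio test, 91 libraries, no animal terms and leaving out animals. Leaving out FS animals, the 5 animals and the 2 libraries of FS animal 8 was chosen after seeing the data.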

Additional observations from a re-analysis of the deposited data

Results flagged for a closer look

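The 7 genes were checked for an animal far from the rest in each CPF group of 4 or 5 animals, 28 groups in all, and chance alone sets apart about 1 in 20 such groups. At FR20 in CPF animals, IGFALS had 88.8 CPM in animal 4 and 4.02 to 8.54 CPM in the others, so that animal stood apart. FOXO1 had 148 CPM in the same library and 22.5 to 35.3 CPM in the others. It is the library whose profile was closest to Baseline, and its albumin was 168246 counts per 1000000, the highest of the 5 CPF libraries labelled FR20. Outside the comparisons, the 3 Baseline libraries without albumin held FOXO1 at 54.4, 92.0 and 131 CPM of the library total, the highest being above the 25.3 to 109 CPM of the FS Baseline libraries used, while IGFBP1 was at 0 to 8.68 CPM there against 467 to 6749 CPM.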

How the results depend on the processing

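Of the counts of passing genes, RLE size factors, filterByExpr and no filter on low counts left each as it was or within 1.5 times. Requiring a log2 fold change of at least 1 as well left 3 genes in FS animals at FR2, FR8 and FR20. Keeping the 3 Baseline libraries without albumin (91 libraries) left 2 genes in FS animals at FR2, 1 in CPF animals at FR8, and 0 for FS FR8 against FR2. Without the animal terms (no replicate block, so no pairing of libraries) 3 genes passed in FS animals at FR20 and 0 for FR8 against FR2. DESeq2 and the likelihood ratio test each gave 1 gene in CPF animals at FR20 and 1 for CPF FR8 against FR2. Of all genes DESeq2 gave 410 and 1778 there. Without the 3 animals that lack an albumin-positive Baseline library, the counts were 1 in CPF at FR20, 2 for FS FR8 against FR2 and 1 for CPF FR8 against FR2. Without the 5 animals they were 3, 2 and 2 (12.1%, 49.1% and 13.8% of all genes). Leaving out 1 animal at a time gave 0 to 1 genes in CPF at FR2, 1 to 2 at FR8 and 0 to 2 at FR20, and 0 to 2 for FS FR8 against FR2. Where a setting has no share of all genes beside it, its counts have no background to be read against.

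Directions turned only for changes that did not pass. INSR in FS animals at FR8, 0.00 with all libraries, was −0.02 with RLE size factors, −0.01 with filterByExpr, −0.02 with no filter, 0.00 with DESeq2, −0.10 with 91 libraries, −0.28 without the replicate block and −0.01 without the 3 animals. GHR was 0.01 without the 3 animals at FR2, 0.02 with 91 libraries at FR8 and −0.03 without the block at FR20, where INSR was −0.02. Leaving out 1 animal gave −0.13 to 0.06 for GHR at FR8, −0.03 to 0.21 for GHR at FR20 and −0.15 to 0.14 for INSR at FR8 (FS), and in CPF −0.15 to 0.51 for IGFBP1 at FR2, −1.44 to 0.10 at FR20, −0.39 to 0.01 for IGF1 at FR2 and −0.19 to 0.77 for IRS1 at FR8. IRS1 was −0.20 at FR8 in CPF without the 5 animals. The cause was not tested. Genes of few counts, INSR above all, are limited by depth.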
